A study of Mus musculus with 16 samples.

Results

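The 8 genes Mbp, Mag, Mog, Mobp, Cnp, Pmp22, Prx and Mal, which encode proteins of the myelin sheath, were followed in dorsal root ganglia (DRG) and dorsal spinal cord after nerve injury. They were found by gene symbol among the 53465 genes of the count table. Every lysate was sequenced both as poly(A) mRNA and as ribosome footprints, which are the mRNA stretches covered by translating ribosomes. Female C57BL/6J mice aged 8 weeks had either spared nerve injury (SNI), in which 2 branches of the sciatic nerve, the common peroneal and the tibial, are tied and cut while the sural branch is spared, or a sham operation that left every branch intact. Surgery was on both sides, and the L3 to L5 DRG and the dorsal part of the matching cord segments were taken 30 days later. Each replicate was a pool of 10 mice and each of the 8 groups, given by tissue, surgery and library type, had 2 pools, so n = 2 stands for every group below. No genetic change was made in any group, and each library mixes all cell types of the dissected tissue.

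Myelin is a stack of membrane wrapped around axons, made by oligodendrocytes in the central nervous system and by Schwann cells in peripheral nerve. Mobp and Mog belong to central myelin: Mobp is a small cytoplasmic protein of the compact sheath and Mog an immunoglobulin-like protein of its outermost surface. Mbp, which holds the cytoplasmic faces together, Mag, an adhesion protein facing the axon, Cnp, a phosphodiesterase of the cytoplasmic channels, and Mal, a proteolipid of membrane sorting, are found in myelin of both kinds. Pmp22, a tetraspan protein of compact myelin, and Prx, a scaffold that links the Schwann cell surface to the dystroglycan complex, belong to peripheral myelin. The mRNAs of Mbp and Mobp are known to be carried into oligodendrocyte processes and translated there. Schwann cells myelinate axons of the DRG and its nerve, and central myelin takes over where the dorsal root enters the cord.

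The libraries held between 6898056 and 28553113 reads in genes. The 8 genes took between 0.229% and 0.237% of these reads in DRG mRNA and between 1.13% and 1.24% in cord mRNA. In footprints they took between 0.200% and 0.209% in DRG and between 0.717% and 0.754% in cord. The tissue labels were checked with 8 sensory neuron markers, whose summed level lay between 5875 and 6041 CPM, which are reads scaled to the library's total, in the 4 DRG mRNA libraries and between 65.1 and 84.5 CPM in the 4 cord libraries. Of the injury genes, Sprr1a, a growth-associated protein of cut sensory neurons, rose by 4.25 on the log2 scale in DRG mRNA. Atf3, a transcription factor induced by axon injury, rose by 2.88 and Gal, the neuropeptide galanin, by 2.08.

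In sham animals, central myelin genes were far lower in DRG than in cord, and both peripheral myelin genes were higher. Mobp had 21.1 and 20.8 CPM in sham DRG mRNA and 1470 and 1518 CPM in sham cord mRNA. Mog had 3.51 and 2.84 CPM in sham DRG and 252.5 and 261.4 CPM in sham cord. DRG mRNA thus held 1.40% of the cord level of Mobp and 1.24% of that of Mog. As CPM were scaled within each tissue, such shares differ slightly from the fits of both tissues. Mobp was 71.3-fold higher in sham cord by CPM and 68.2-fold by the fit. Mag, found in both kinds of myelin, had 24.5 and 23.0 CPM in DRG and 609.3 and 621.0 CPM in cord, which put DRG at 3.86% of cord. For Mbp the DRG level was 10.5% of that in cord, for Mal 16.8% and for Cnp 21.1%. Pmp22 had 1192 and 1185 CPM in DRG against 335.4 and 345.4 in cord. Prx had 124.8 and 128.4 CPM in DRG against 72.6 and 70.4 in cord.

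All 8 differences passed an adjusted p of 0.05, with 6 genes lower and 2 higher in DRG, beside 42.3% lower and 41.4% higher among all 14706 genes tested. Mog, counted among the 6, had 121 reads in the sham DRG pools and enough reads for this test only through the cord libraries. The log2 fold changes of DRG over cord were -6.26 ± 0.0617 (SE) for Mog, -6.09 ± 0.0346 for Mobp and -4.63 ± 0.0361 for Mag. They were -3.19 for Mbp, -2.51 for Mal and -2.18 for Cnp, with the largest adjusted p of these 6 at 6.15e-44 for Cnp. Pmp22 was 1.87 ± 0.0225 higher and Prx 0.88 ± 0.0356 higher in DRG. Since these are whole tissues, fewer cells of a type and less RNA per cell cannot be told apart.

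**Figure D1:**
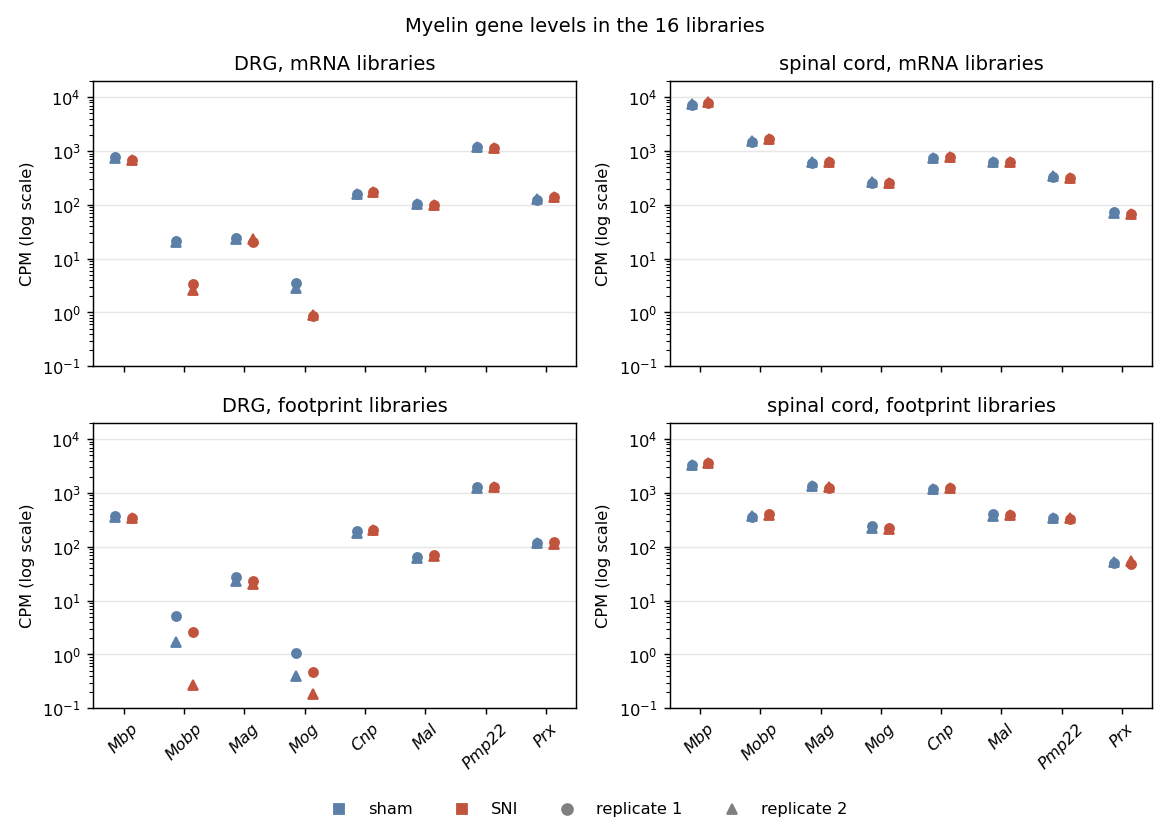
Level of each myelin gene in CPM, on a log axis, in each of the 16 libraries, with mRNA above and footprints below and DRG left and cord right. Blue marks sham and red SNI, circles replicate 1 and triangles replicate 2; red and blue points lie farthest apart for Mobp and Mog in DRG mRNA.

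Per kilobase of exon, the order of mRNA levels differed between the tissues. In sham DRG it ran from Pmp22 with 506.2 and 503.4 CPM per kb through Mbp with 91.2 and 89.0, Cnp with 42.9 and 43.0, Mal with 37.5 and 37.2, Prx with 22.4 and 23.0 and Mag with 6.01 and 5.65 to Mobp with 3.08 and 3.03 and Mog with 2.06 and 1.67. The pools of no neighbouring pair overlapped in that order. In sham cord Mbp led with 849.0 and 872.3 CPM per kb of exon. Mal followed with 224.4 and 221.0, Mobp with 214.6 and 221.6 and Cnp with 203.4 and 204.7, of which the pools of Mal and Mobp overlapped. Mog with 148.2 and 153.4 and Mag with 149.6 and 152.5 overlapped as well, just above Pmp22 with 142.5 and 146.7. Prx was lowest in cord with 13.0 and 12.6.

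Footprints per kilobase of coding sequence placed Pmp22 at the head in sham DRG, with 2709 and 2637 CPM per kb, and Mbp in sham cord, with 2765 and 2782. Prx, whose coding sequence of 4263 bases is the longest of the 8, lay at 27.5 and 27.1 CPM per kb of coding sequence in sham DRG. Mobp footprints spread widely between the sham DRG pools, at 9.61 and 3.14 CPM per kb, while the pools of Cnp, Mal, Mbp, Pmp22 and Prx lay close together there. The Mobp values rest on 39 and 30 footprint reads and the Mog values on 8 and 7.

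Translation efficiency (TE) is the footprint CPM of a gene over its mRNA CPM in the same lysate, and is compared here for the same gene only. In sham lysates 4 of the 8 genes had lower TE in DRG than in cord and 3 had higher TE, beside 22.6% lower and 20.4% higher among 12504 genes tested. Mag had log2 TE values of 0.19 and 0.04 in sham DRG and of 1.13 and 1.09 in sham cord. Its TE was 0.99 ± 0.0809 (SE) lower in DRG on the log2 scale, with an adjusted p of 2.53e-29. Mog was at -1.62 and -2.74 in DRG and at -0.08 and -0.20 in cord, a difference of -2.13 ± 0.337 with an adjusted p of 5.80e-09 that rests on 8 and 7 DRG footprint reads. Mog and Mobp, both counted among the 4, had enough footprint reads for this test only through the cord libraries. Cnp was lower by 0.38 ± 0.0428 and Mobp by 0.83 ± 0.17, and the Mobp pools, at -1.99 and -3.57 in DRG, overlapped those of cord at -2.02 and -2.04 (the Mobp difference was 0.05 without DRG sham replicate 2 and had an adjusted p of 0.547 with DESeq2).

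Prx had higher TE in sham DRG, at -0.09 and -0.15 against -0.53 and -0.40 in cord, a difference of 0.34 ± 0.0687 (adjusted p of 0.0533 with limma on the deposited ratio). Mbp was higher by 0.11 ± 0.0339 and Pmp22 by 0.09 ± 0.0379, with adjusted p of 0.00375 and 0.0478 (edgeR). Neither passed with DESeq2 (adjusted p of 0.22 and 0.466), limma on the deposited ratio (0.308 and 0.433) or no filter (0.101 and 0.224). The Pmp22 call was also lost with library sizes alone (0.0803), median-ratio factors (0.0876) and no lysate terms (0.0711). Mal had log2 TE of -0.69 and -0.75 in DRG and of -0.62 and -0.69 in cord and did not pass, with an adjusted p of 0.426.

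The promoters of the genes were read for the core letters of SOX family sites, because Sox10 is a known activator of myelin genes in both glial types and because Mobp and Mog fell together in the DRG. The letters ACAAAG, or CTTTGT on the other strand, were counted in the 250 bases before each transcription start (RefSeq, GRCm38.p6). They occurred in 6 places in the Mobp promoter, once in that of Cnp and once in a Mag promoter, and not in the windows of Mog, Mal, Pmp22 or Prx. At least 1 place was found in 16.5% of all 32851 promoter windows and at least 3 places in 0.137%, and 6 was the highest number in any window. The E-box CAGCTG, the same on both strands, was in none of the members' windows and in 13.0% of all. Windows of 30 bases that hold the SOX letters are printed below 5′ to 3′ on the gene's strand, with the letters in capitals, and the Mobp windows share some bases.
Mobp, chr9:120149492-120149521, + strand: tcttggtCTTTGTtcccatCTTTGTtggcc
Mobp, chr9:120149509-120149538, + strand: atCTTTGTtggcCTTTGTtttctttttgtt
Mobp, chr9:120149532-120149561, + strand: ttttgtttcactCTTTGTttcaactttctt
Mobp, chr9:120149598-120149627, + strand: actctgtgtggcCTTTGTgcgggcCTTTGT
Cnp, chr11:100574760-100574789, + strand: aacttttaaggaACAAAGaggtggcgtggc
Mag, chr7:30914972-30915001, - strand: tgacaagggcccCTTTGTgcccccctcccc
A match of letters is a description of the sequence and was not measured as a bound site. A link between these letters and the mRNA changes was not tested.

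After SNI, DRG mRNA of the central myelin genes Mobp and Mog fell steeply, and the other 6 genes moved by at most 1.12-fold. Mobp had 21.1 and 20.8 CPM in the sham pools and 3.36 and 2.57 CPM in the SNI pools. These values rest on 421 and 373 reads in sham and 97 and 58 in SNI. Both SNI pools lay far below both sham pools, and Mobp fell by 2.79 ± 0.112 (SE) on the log2 scale, or 6.94-fold, with an adjusted p of 4.27e-21. Mog had 3.51 and 2.84 CPM in sham, from 70 and 51 reads, and 0.865 and 0.888 CPM in SNI, from 25 and 20 reads. Mog fell by 1.86 ± 0.22 on the log2 scale, or 3.63-fold, with an adjusted p of 1.66e-08. Relative to cord, DRG mRNA went from 1.40% of the cord level in sham to 0.178% in SNI for Mobp and from 1.24% to 0.347% for Mog. Mog had 121 DRG mRNA reads in the sham pools and 45 in the SNI pools, and it reached the minimum of reads set for a test mainly through sham.

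In DRG mRNA, 4 of the 8 genes fell and 2 rose, beside 17.0% lower and 15.9% higher among 14494 genes tested, and no call among the 8 changed with DESeq2. The other changes were small. Mbp went from 772.3 and 753.4 CPM in sham to 693.2 and 677.0 CPM in SNI, lower by 0.15 ± 0.0134 on the log2 scale with an adjusted p of 1.17e-11. Pmp22 went from 1192 and 1185 to 1157 and 1144 CPM, lower by 0.05 ± 0.00781, and this call was lost with library sizes alone (adjusted p of 0.392) and with both tissues in 1 fit (0.0664). Cnp rose by 0.17 ± 0.0258, from 156.1 and 156.6 to 176.8 and 174.3 CPM. Prx rose by 0.17 ± 0.0277, from 124.8 and 128.4 to 141.8 and 141.9 CPM. The SNI pools did not overlap the sham pools for these 4 genes, nor for Mag and Mal, which were not called. How many of all genes separate in this way was not counted. Mag and Mal did not pass, with log2 fold changes of -0.14 ± 0.0651 (adjusted p of 0.104) and -0.07 ± 0.0298 (adjusted p of 0.0759).

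The spread between the pools, by which these p-values are set, was close to counting noise: the common coefficient of variation was 0.00988 in DRG mRNA. The coefficient was 0.043 in DRG footprints, while the DRG TE fit, which holds both library types, gave a common value of 0.00988. With that coefficient set to 0.1, or tested against a 1.5-fold change, the falls of Mobp and Mog in DRG mRNA passed and no other SNI change of the 8 genes in mRNA did, in either tissue. The mRNA p-values are therefore set largely by read depth and by the small spread between 2 pools per group. The spread between single mice was not measured.

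**Figure D2:**
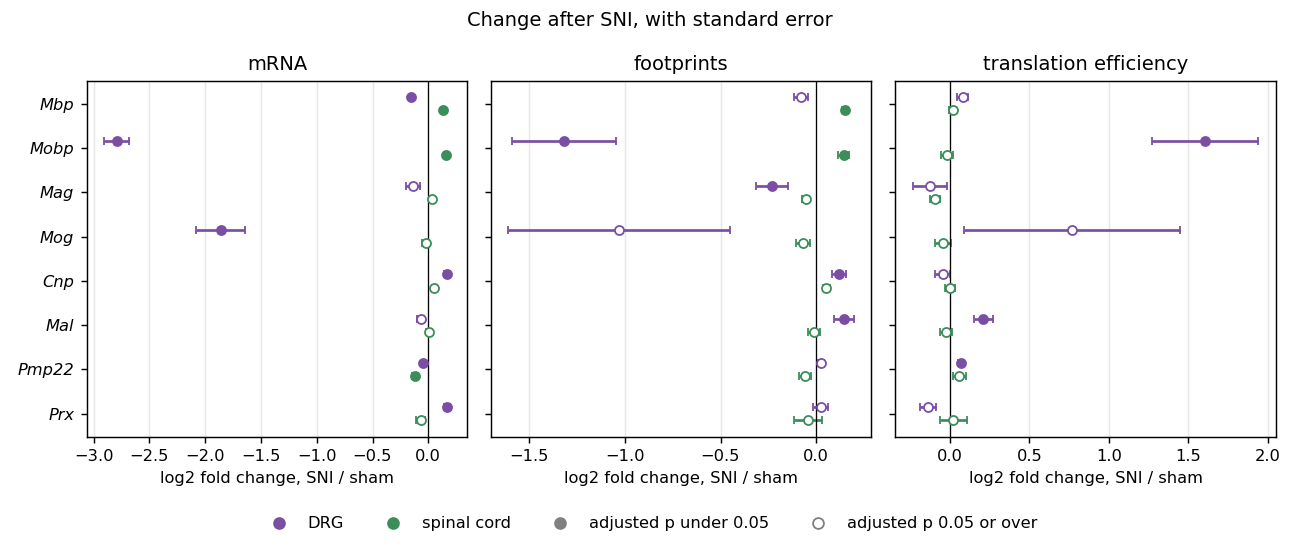
Log2 fold change of SNI over sham for each gene (x axis) in mRNA, footprints and translation efficiency, with bars for the standard error of the fit. Purple is DRG and green cord, and filled points passed an adjusted p of 0.05; in DRG mRNA Mobp lies at -2.79 and Mog at -1.86, and the DRG footprint and translation efficiency points of these genes come from a fit with no minimum of reads.

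Some other markers of central nervous tissue were also lower in the SNI pools of DRG. Of 12 markers of oligodendrocytes, Mobp and Mog included, 9 had enough reads in DRG mRNA, of which 5 fell and 1 rose, with a median log2 fold change of -0.76 beside a median of 0 for all genes. Without Mobp and Mog, 3 of 7 fell and 1 rose, with a median of -0.08. Among all genes tested in DRG mRNA, 17.0% were lower and 15.9% higher. Ermn, a cytoskeletal protein of oligodendrocytes, fell by 1.46 ± 0.189 on the log2 scale, Olig1, a transcription factor of the lineage, by 1.40 ± 0.186 and Nkx6-2 by 0.76 (DESeq2 adjusted p of 0.221). Mean levels of Ermn were 4.29 CPM in sham and 1.52 CPM in SNI, and those of Olig1 4.2 and 1.6 CPM. Like Mog, both reached the minimum of reads mainly through sham, so the count of falls is partly set by that minimum. Tmem88b rose by 0.67 ± 0.103. Olig2, with 25 and 18 reads in sham and 10 and 4 in SNI, Opalin, with 14 and 15 against 5 and 5, and Hapln2, with 27 and 22 against 18 and 15, had too few reads for the test.

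Several of these genes stood at nearly the same share of their cord level in sham DRG. The share was 1.24% for Mog, 1.40% for Mobp, 1.37% for Olig1, 1.55% for Ermn, 1.55% for Olig2, 1.47% for Opalin and 1.16% for Hapln2. In SNI it was 0.347% for Mog, 0.178% for Mobp, 0.501% for Olig1, 0.596% for Ermn, 0.341% for Olig2, 0.370% for Opalin and 0.555% for Hapln2. These genes were grouped by their sham share, and the other listed markers had higher shares in sham, between 2.90% for Tmem88b and 61.0% for Aspa. From sham to SNI the share rose from 2.90% to 4.83% for Tmem88b, from 6.32% to 6.47% for Cldn11 and from 61.0% to 64.5% for Aspa. It went from 4.93% to 4.74% for Myrf and from 4.67% to 2.7% for Nkx6-2. Summed over the 12 oligodendrocyte markers, DRG mRNA had 129.2 and 126.1 CPM in sham and 105.0 and 105.8 CPM in SNI, and no marker was at 0 in any DRG mRNA library. Most of that drop is Mobp and Mog: the other 10 markers summed to 104.6 and 102.5 CPM in sham and 100.8 and 102.4 CPM in SNI, which is nearly level. Of 6 markers of oligodendrocyte precursors 3 were tested, of which Cspg4 and Pdgfra rose, by 0.29 and 0.16, and Lhfpl3 fell by 0.23, with a median of 0.162. In sham DRG these 3 stood at 106% (Cspg4), 53% (Pdgfra) and 60.1% (Lhfpl3) of their cord level. The untested Gpr17, C1ql1 and Neu4 stood at 1.3%, 4.7% and 0.718%. The summed level of the 6 was 97.3 and 99.2 CPM in sham and 97.7 and 96.9 CPM in SNI.

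Markers of spinal cord neurons moved the same way: 4 of 7 tested fell and none rose, with a median of -0.47. All counts of this paragraph stand beside 17.0% lower and 15.9% higher among all genes in DRG mRNA. Slc6a5, the glycine transporter of inhibitory terminals, stood at 1.59% of its cord level in sham DRG and fell by 1.21 ± 0.131, with a DESeq2 adjusted p of 2.57e-07. Slc6a5 was the only one of the 4 to pass with DESeq2. Their summed level was 63.8 and 61.2 CPM in sham and 56.9 and 52.2 CPM in SNI. Of 8 astrocyte markers 5 fell and 1 rose, with a median of -0.40 and with Gfap, the astrocyte filament protein that satellite glia can also express, down by 0.97 ± 0.1. Their summed level was 187.1 and 187.1 CPM in sham against 145.9 and 138.8 CPM in SNI. Skeletal muscle genes went the other way, with 8 of 9 higher, a median of 1.40 and summed levels of 50.1 and 53.1 CPM in sham against 135.1 and 136.7 CPM in SNI. Among these, Actn3 had 48 and 58 reads in sham and 215 and 166 in SNI, so it reached the minimum of reads only through SNI. Markers of microglia and macrophages were higher too, with 6 of 9 up and none down, a median of 0.424 and summed levels of 135.0 and 135.4 CPM in sham against 182.0 and 177.2 CPM in SNI. Of 4 endothelial markers 3 rose, with a median of 0.166, and of 4 fibroblast markers 3 rose, with a median of 0.165. None of the markers of these types was at 0 in a DRG mRNA library, and their part in the Mobp and Mog results was not tested.

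**Figure D3:**
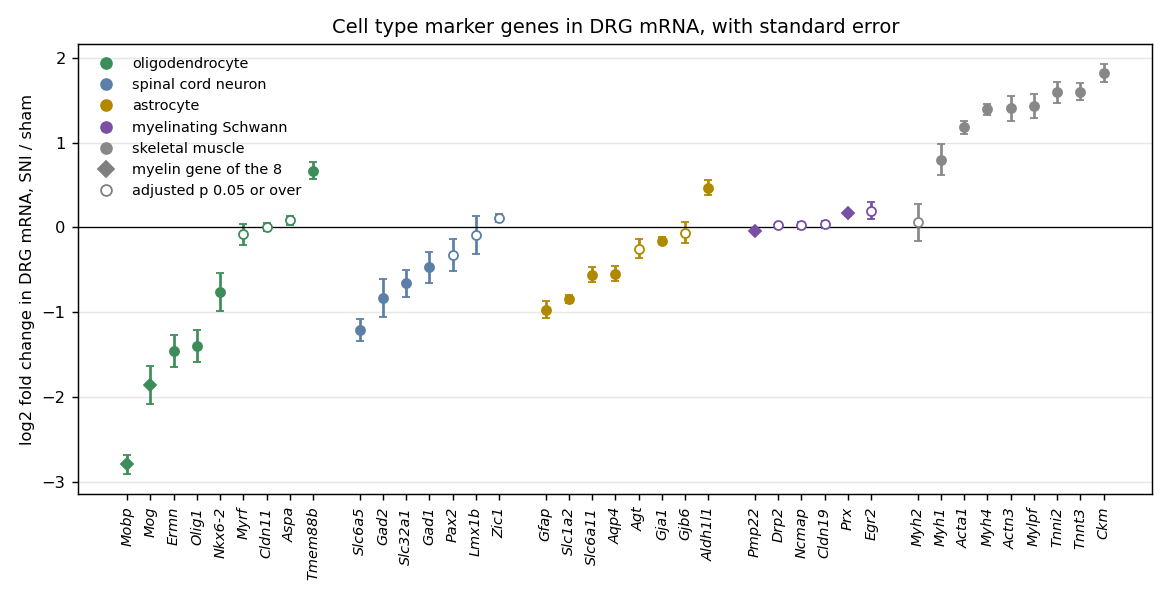
Log2 fold change of SNI over sham in DRG mRNA for the reported markers of 5 cell types that passed the minimum of reads, with bars for the standard error. Diamonds are genes of the 8 and open points did not pass an adjusted p of 0.05; Mobp, Mog, Ermn and Olig1 form the low end of the oligodendrocyte markers, at -2.79, -1.86, -1.46 and -1.40.

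Markers of myelinating Schwann cells, Pmp22 and Prx included, had a summed level in DRG mRNA of 1544 and 1537 CPM in sham and of 1527 and 1521 CPM in SNI, and without these 2 genes of 227.1 and 223.5 CPM in sham and 227.4 and 235.2 CPM in SNI. Besides Pmp22 and Prx, 4 of 5 markers were tested, Ncmap, Drp2, Egr2 and Cldn19, and none passed. Their log2 fold changes lay between 0.02 for Drp2 and 0.20 for Egr2, a transcription factor of Schwann cell myelination, with a median of 0.032.

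In DRG footprints the genes with enough reads changed little. Of the 6 tested, 2 rose and 1 fell, beside 8.40% higher and 8.28% lower among 13038 genes tested, and none passed with DESeq2. Cnp had 194.4 and 184.5 CPM in sham and 208.2 and 202.3 CPM in SNI, higher by 0.12 ± 0.035 with an adjusted p of 0.00974. Mal had 64.4 and 61.6 CPM in sham and 71.2 and 67.9 CPM in SNI, higher by 0.15 ± 0.052 with an adjusted p of 0.0383. Mag had 28.0 and 23.7 CPM in sham and 23.0 and 20.2 CPM in SNI, lower by 0.23 ± 0.0853 with an adjusted p of 0.0475. Mbp, Pmp22 and Prx had log2 fold changes of -0.08, 0.02 and 0.02 and did not pass. The SNI pools lay outside the range of the sham pools for Cnp, Mal and Mag, and also for the uncalled Mbp and Pmp22. How many of all genes separate in this way in DRG footprints was not counted, so no result is drawn from it. The Mag call was lost without sham replicate 1 (adjusted p of 0.319) and without SNI replicate 2 (0.626), and those of Cnp and Mal without sham replicate 2 (0.345 and 0.467) and without SNI replicate 1 (0.28 and 0.321).

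Mobp and Mog had too few footprint reads in the 4 DRG libraries together for that minimum and were read from a fit with no minimum of reads. Mobp had 39 and 30 footprint reads in sham and 32 and 6 in SNI, or 5.27 and 1.72 CPM against 2.57 and 0.275 CPM. The groups overlapped, and replicate 1 was the higher in both. The fitted change was -1.32 ± 0.271 with an adjusted p of 0.000121, in a fit that called 3.31% of genes lower and 3.82% higher. It did not pass without sham replicate 1, at -0.61, without SNI replicate 2, at -0.13, or with DESeq2 (adjusted p of 0.998). Mog had 8 and 7 footprint reads in sham and 6 and 4 in SNI, a change of -1.03 ± 0.579 that did not pass (adjusted p of 0.43).

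TE in the DRG rose in 2 of the 6 genes tested and fell in none, beside 4.22% higher and 3.21% lower among 12710 genes. Mal had log2 TE of -0.69 and -0.75 in sham and -0.46 and -0.56 in SNI, higher by 0.21 ± 0.058 with an adjusted p of 0.00772. Its mRNA was lower and its footprints higher in both SNI pools than in both sham pools. Pmp22 had log2 TE of 0.13 and 0.10 in sham and 0.17 and 0.19 in SNI, higher by 0.07 ± 0.0163 with an adjusted p of 0.000771. Both calls were lost with DESeq2, for which both adjusted p were 0.999. They were also lost on the deposited ratio with limma (0.389 and 0.699), and without sham replicate 2 (0.258 and 0.341) or SNI replicate 1 (0.211 and 0.156), and that of Pmp22 without SNI replicate 2 (0.431).

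Prx had log2 TE of -0.09 and -0.15 in sham and -0.21 and -0.31 in SNI, a difference of -0.14 ± 0.0499 that did not pass (adjusted p of 0.0691). Mbp, Cnp and Mag had differences of 0.08, -0.05 and -0.13 and did not pass. For Mobp the log2 TE values were -1.99 and -3.57 in sham and -0.37 and -3.12 in SNI. The fit with no minimum gave 1.61 ± 0.334 with an adjusted p of 0.000188, where 1.57% of genes were called higher and 1.37% lower. This value rests on SNI replicate 1: without that lysate it was -0.32, and the 2 groups overlapped. It was 0.74 (adjusted p of 0.481) without sham replicate 2 and did not pass with DESeq2. Mog gave 0.77 ± 0.68, which did not pass.

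**Figure D4:**
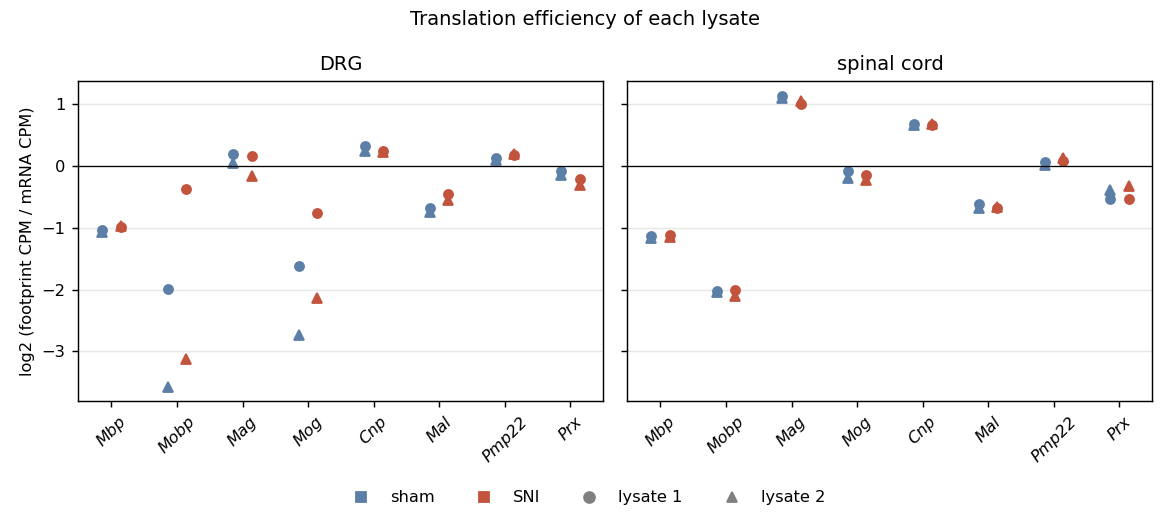
Log2 translation efficiency (y axis, footprint CPM over mRNA CPM) of each gene in each of the 8 lysates, with DRG left and cord right. Blue marks sham and red SNI, circles lysate 1 and triangles lysate 2; in DRG the Mobp values run from -3.57 to -0.37 and those of Mog from -2.74 to -0.76.

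In the spinal cord, Mbp and Mobp rose together in mRNA and in footprints. Mbp mRNA had 7190 and 7388 CPM in sham and 7934 and 8028 CPM in SNI, higher by 0.13 ± 0.0197 on the log2 scale with an adjusted p of 3.18e-06. Mobp mRNA had 1470 and 1518 CPM in sham and 1661 and 1678 CPM in SNI, higher by 0.16 ± 0.0219 with an adjusted p of 2.56e-07. Pmp22 mRNA went from 335.4 and 345.4 CPM to 312.7 and 315.3 CPM, lower by 0.12 ± 0.0262 with an adjusted p of 0.00361. The other 5 did not pass, with log2 fold changes between -0.07 for Prx and 0.05 for Cnp. The pools of sham and SNI did not overlap for Mbp, Mobp and Pmp22, nor for Cnp, Mag and Prx, which did not pass. The share of all genes that separate in this way in cord mRNA was not counted, so no result is drawn from it. In all, 2 of 8 rose and 1 fell, beside 2.09% higher and 1.96% lower among 14723 genes tested. The Pmp22 call was lost with DESeq2 (adjusted p of 0.157) and without SNI replicate 1 (0.0932) or SNI replicate 2 (0.0758).

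The same direction was seen in cord footprints. Mbp had 3259 and 3280 footprint CPM in sham and 3651 and 3596 in SNI, higher by 0.15 ± 0.0132 with an adjusted p of 3.95e-08. Mobp had 363.3 and 367.7 CPM in sham and 414.4 and 392.2 CPM in SNI, higher by 0.14 ± 0.0297 with an adjusted p of 0.00633. These were the 2 genes of the 8 that passed, beside 1.21% higher and 1.03% lower among 12018 genes. The Mobp call was lost with DESeq2 (adjusted p of 0.432), with both tissues in 1 fit (0.315), and without sham replicate 1 (0.158), sham replicate 2 (0.0592) or SNI replicate 1 (0.135). Mag had 1335 and 1325 CPM in sham and 1260 and 1298 CPM in SNI and did not pass (adjusted p of 0.133).

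Cord TE did not pass for any of the 8 genes with edgeR or with DESeq2, beside 0.169% higher and 0.0843% lower among 11865 genes. The only unadjusted p under 0.05 was that of Mag, at 0.00402, with log2 TE of 1.13 and 1.09 in sham and 1.00 and 1.04 in SNI and an adjusted p of 0.369. The other 7 differences lay between -0.04 for Mog and 0.06 for Pmp22.

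Among the other oligodendrocyte markers in cord mRNA, no rise passed the test. Of the 10 besides Mobp and Mog, none rose and Ermn fell, by 0.12 ± 0.0271, and the median was 0. Among all genes tested in cord mRNA, 2.09% were higher and 1.96% lower. Of 4 Schwann cell markers tested besides Pmp22 and Prx, Drp2, a dystrophin-related protein that binds Prx, fell by 0.14 ± 0.0366 (DESeq2 adjusted p of 0.705), and the median was -0.094. The summed level of the Schwann cell markers other than Pmp22 and Prx in cord mRNA was 142.4 and 138.8 CPM in sham and 130.2 and 128.5 CPM in SNI, and its part in the Pmp22 result was not tested. Of 9 markers of microglia and macrophages in cord mRNA 4 rose and none fell, with a median of 0.314 and summed levels of 205.0 and 203.8 CPM in sham and 246.5 and 251.2 CPM in SNI. Of 8 astrocyte markers Gfap rose, by 0.22 ± 0.0228, and Aqp4 and Slc1a2 fell by 0.11 and 0.10, with summed levels of 6041 and 5901 CPM in sham and 5826 and 5849 CPM in SNI. The part of these cells in the Mbp and Mobp results was not tested.

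Whether the 2 tissues responded unequally to SNI was tested with an interaction term. In mRNA, 3 of the 8 genes responded lower in DRG than in cord and 2 higher, beside 7.23% lower and 6.35% higher among 16716 genes. Mobp differed by -2.95 ± 0.103, falling in DRG and rising in cord, with an adjusted p of 8.22e-28. Mog differed by -1.83 ± 0.224 and Mbp, also down in DRG and up in cord, by -0.28 ± 0.0269 with an adjusted p of 3.14e-11. Prx differed by 0.24 ± 0.0476 and Cnp by 0.12 ± 0.0331, and the Cnp call was lost with DESeq2 (adjusted p of 0.101) and without DRG sham replicate 1 (0.0573) or DRG SNI replicate 1 (0.0681). Mag, Mal and Pmp22 did not pass.

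For TE, 1 of the 8 genes differed in its response, beside 0.644% higher and 0.365% lower among 13966 genes. This was Mobp, at 1.64 ± 0.368 with an adjusted p of 0.00516, and it too rests on DRG SNI replicate 1, without which it was -0.29. It was 0.77 (adjusted p of 0.466) without DRG sham replicate 2. Mobp and Mog had enough footprint reads for this test only because the cord libraries were counted with those of DRG. Mal differed by 0.24 ± 0.069 and did not pass (adjusted p of 0.0691).

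Other genes of the myelin sheath changed in both directions in DRG mRNA. Of 26 further structural genes 22 were tested in DRG mRNA, of which 5 rose and 6 fell, with a median log2 fold change of 0.022, beside 15.9% higher and 17.0% lower among all genes. Ermn had the largest change, and the next was Omg, an oligodendrocyte and neuron surface protein, lower by 0.66 ± 0.0672. Of 20 structural genes tested in DRG TE 3 rose and none fell, beside 4.22% higher and 3.21% lower among all genes. None of the 3 passed with DESeq2. They were Gpm6b, higher by 0.18 ± 0.0425 on the log2 scale, Plekhb1 by 0.17 ± 0.0534 and Cd9, a tetraspanin, by 0.12 ± 0.0227.

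Regulators and lipid enzymes moved in both directions, and their counts are read against the same 15.9% higher and 17.0% lower in DRG mRNA. Of 14 myelin transcription factors 11 were tested in DRG mRNA, with 3 higher and 3 lower and a median of 0.001. Olig1 and Nkx6-2 fell and Pou3f1, a factor of promyelinating Schwann cells, rose by 0.61. Sox10, the glial factor named above, rose by 0.09. Of 13 genes of myelin lipid synthesis 1 rose and 3 fell, with a median of 0.025. Ugt8a, the galactosylceramide synthase, was lower by 0.36, and Hmgcs1 of the sterol pathway by 0.17. Hmgcs1 had 813.2 and 800.6 CPM in sham DRG mRNA and 715.8 and 713.8 CPM in SNI, while log2 TE of Hmgcs1 was higher in SNI by 0.22 ± 0.0226, with adjusted p of 3.64e-20 (edgeR) and 0.000207 (DESeq2). In DRG TE, 1 of the 13 lipid genes rose and 1 fell, with a median of 0.065, beside 4.22% higher and 3.21% lower among all genes. Of 10 signalling genes tested 4 rose and 2 fell, with Erbb2 and Erbb3, the neuregulin receptors of Schwann cells, higher by 0.38 and 0.21 and Lgi4, a ligand secreted by Schwann cells, higher by 0.28. In cord mRNA none of the transcription factors and none of the lipid genes passed, beside 2.09% higher and 1.96% lower among all genes. Of 11 signalling genes tested there none rose and 3 fell, Erbb3 by 0.23, Gpr37 by 0.14 and Adam22 by 0.08, none of which passed with DESeq2. The structural list there had 2 higher, Bcas1 at 0.20 and Plekhb1 at 0.13, and 3 lower, Drp2 at -0.14, Ermn at -0.12 and Gpm6b at -0.09.

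The genes whose mRNA pattern over the 8 mRNA libraries lay closest were found by the root mean square difference of centred log2 CPM among 13556 genes. For Mobp these were Mog, at 0.46, Htr2c, the serotonin receptor of choroid plexus and neurons, at 0.59 and Olig1 at 0.66. For Mog they were Olig1 at 0.22, Htr2c at 0.26 and 1500009C09Rik at 0.28. The nearest genes of Mbp were Lrrc4b, Pnmal2 and Grin2d, at 0.07 to 0.08, those of Mag Cx3cl1, Rapgefl1 and Nova1, at 0.10, and those of Cnp Tspan9, Sh2d5 and Rtl5, at 0.03 to 0.05. Those of Mal were Slc22a17, Slc22a4 and Phlpp1, of Pmp22 Nek1, Sh3bgrl2 and Col12a1, and of Prx Hdlbp, Unc13b and Caml, all under 0.05. These distances are set mostly by the difference between the tissues.

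All 8 genes are annotated as separate loci on GRCm38 (GENCODE M21). Mobp lies at chr9:120149707-120181484 on the + strand and Mog at chr17:37010743-37023398 on the - strand. Exons of Cnp share 154 bases with Dnajc7 and those of Prx 300 bases with the antisense gene Gm15541, both on the other strand, and those of Mobp share 79 bases with Gm38642. The study's methods describe the sequencing as not strand-specific, and the strand setting of the counting is not given in the sources used here, so reads of these stretches may belong to either gene. They make up 4.23%, 5.38% and 1.15% of the exon bases of Cnp, Prx and Mobp.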

How the data were processed

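The 16 libraries are an mRNA and a footprint library from each of 8 lysates of DRG or dorsal spinal cord. Per the labels and the submitters' processing notes, the authors discarded contaminant rRNA and tRNA by Bowtie 1.1.2, aligned to GRCm38.p5 with STAR 2.5.2b and obtained the deposited counts with HTSeq (no version given). From these counts the authors computed the RPKM values. The deposited TE is a ratio of footprint RPKM to mRNA RPKM of a lysate, made by the authors.

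Tests used edgeR 4.0.16 under R 4.3.3 (TMM factors within each assay, quasi-likelihood test, Benjamini-Hochberg adjusted p under 0.05 over all genes tested). A minimum of 128 reads in sum over an assay's libraries was required. TE was the interaction of surgery, or tissue, with assay, with lysate terms. Standard errors are the fold change over the root of F. Mobp and Mog, under that minimum in DRG footprints, were read from a fit without it, a choice made after seeing the data. Log2 TE added 0.5 reads. Alternatives were DESeq2 1.42.0, limma 3.58.1 on the deposited ratio, other scalings and filters, a coefficient of variation of 0.1, a test against 1.5-fold, a replicate block and leaving out each lysate. The fits were tested on simulated data. Lengths for levels per kilobase came from GENCODE M21 and promoters from RefSeq, where 7 of the 8 genes matched, all but Mbp.

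The named genes were the 8 genes, up to 4 called genes of each list by size of change, the 3 nearest genes of each member and Sprr1a, Atf3 and Gal. Genes of a list under the minimum of reads, and some smaller changes, were named after their values were seen. Some genes of the lists are not reported here and were left out of the lists' counts and summed levels. The members and lists were chosen with earlier results of these data known. Between 6898056 and 28553113 reads per library set the precision. Python 3.11.15, pandas 2.3.3 and matplotlib made the tables and figures.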

Additional observations from a re-analysis of the deposited data

Results flagged for a closer look

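The mRNA response to SNI differed between DRG and cord, by the interaction of surgery and tissue, for 5 of the 8 genes, given here as the DRG change minus the cord change on the log2 scale. It was -2.95 for Mobp, with a change of -2.79 in DRG and 0.16 in cord. For Mog it was -1.83, with -1.86 in DRG and -0.02 in cord. For Mbp it was -0.28, with -0.15 in DRG and 0.13 in cord. For Prx it was 0.24, with 0.17 in DRG and -0.07 in cord, and for Cnp it was 0.12, with 0.17 in DRG and 0.05 in cord. The TE response differed for Mobp, by 1.64, from 32 and 6 DRG footprint reads in the SNI pools, and it was -0.29 without DRG SNI replicate 1. With 2 pools per group, no single pool was tested for standing apart.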

How the results depend on the processing

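Of 1085 values of the 8 genes under alternatives, 929 kept their direction and side of the threshold, 108 kept the direction and lost the call, 21 gained one and 27 changed sign. The falls of Mobp and Mog in DRG mRNA and all 8 mRNA differences between sham tissues passed under every alternative that could be fitted. Mobp and Mog had too few DRG reads for the minimum in every single library, and Mog for leaving out a sham DRG pool from mRNA. With the coefficient of variation at 0.1 or the test against 1.5-fold, both by construction stricter, the genes called fell from 6 to 2 in DRG mRNA, from 5 to 2 in the mRNA response and from 7 to 2 in sham TE. They fell to 0 in DRG footprints (from 3), DRG TE (from 2), cord mRNA (from 3), cord footprints (from 2) and the TE response (from 1). DESeq2 called 0 in DRG footprints, 0 in DRG TE, 1 in cord footprints and 4 in sham TE, and limma on the deposited ratio 0 in DRG TE and 3 in sham TE. With both tissues in 1 fit, 5 were called in DRG footprints and 1 in cord footprints. In the TE response, 2 were called with no filter and 0 with the minimum in every library. The cause of these differences was not tested.

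No source used here says that equal replicate numbers mark shared animals or days. DRG and cord were taken from the same animals, and whether equally numbered pools of the 2 tissues hold the same mice is not given. Across genes, the difference of replicate 1 and replicate 2 in sham and in SNI correlated at 0.043 in DRG mRNA, 0.212 in DRG footprints, 0.003 in cord mRNA and -0.031 in cord footprints. Between DRG and cord it correlated at 0.025 in sham mRNA, 0.011 in sham footprints, 0.001 in SNI mRNA and -0.022 in SNI footprints, a check added after seeing the data. With the replicate block, the genes called were 5 in DRG footprints, where Mbp and Pmp22 were added, 3 in DRG TE with Prx, 6 in the mRNA response with Pmp22 and 2 in the TE response with Mal, and no call was lost.

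Leaving out 1 pool at a time gave 1 to 3 genes in DRG footprints, 0 to 2 in DRG TE, 1 to 2 in cord footprints, 5 to 7 in sham TE and 0 to 2 in the TE response. The log2 value ran from -0.32 to 2.48 for Mobp in DRG TE, from -1.55 to 0.0499 for Mobp in sham TE and from -0.29 to 2.51 for Mobp in the TE response. Values that were not called changed sign for Pmp22 (-0.0003 to 0.0422) and Prx (-0.0166 to 0.0753) in DRG footprints, Mag in DRG TE (-0.2706 to 0.0514), Mal in cord mRNA (-0.0042 to 0.0183), and Mal (-0.0618 to 0.03) and Prx (-0.1298 to 0.0537) in cord footprints. In cord TE they did for Mobp (-0.0633 to 0.0301), Mog (-0.1059 to 0.0141), Cnp (-0.0073 to 0.0092), Mal (-0.0567 to 0.0111) and Prx (-0.0765 to 0.1293), and in the TE response for Mag (-0.17 to 0.15) and Pmp22 (-0.0152 to 0.0408). Other sign changes were Cnp in cord TE with DESeq2 or median-ratio factors (0.0004), no filter (0.0032) or the minimum in every library (0.0014), Mal in sham TE with no filter (0.0005) and Pmp22 in the TE response with the minimum in every library (-0.0034).

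Among all genes, DRG mRNA calls were 2308 higher and 2467 lower, against 928 and 1176 with DESeq2, 186 and 81 with the coefficient at 0.1 and 81 and 24 against 1.5-fold, and 3072 and 1781 with library sizes alone. Depth limits Mobp and Mog in DRG footprints, where a pool held at most 39 and 8 reads.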

Other observations

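The deposited RPKM values of these genes do not follow their own exon lengths. For Mbp the deposited value was 60.9 times that computed from the exonic length deposited for the gene, in every library. The ratio was 12.6 for Mag, 4.96 for Cnp, 4.34 for Mal, 1.40 for Mog, 1.16 for Prx, 1.15 for Mobp and 0.818 for Pmp22. Levels of different genes were therefore compared from the counts, and a ratio of libraries for 1 gene, such as TE, is not touched by the length. Htr2c, which lay near both Mobp and Mog in its mRNA pattern, is not on any list of oligodendrocyte markers used here.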
